A study of Mus musculus with 9 samples.

Results

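The small heat shock proteins form a family of chaperones that share the alpha-crystallin domain. Unlike the large heat shock proteins they use no ATP: they assemble into oligomers, hold partly unfolded proteins in a soluble state, and pass them on to the ATP-driven chaperones or to autophagy. In skeletal muscle they are known for binding the Z-disc, desmin, titin and filamin C, and for protecting these structures during contraction. Genes were chosen by symbol, as Cryab, Hspb1, Hspb2, Hspb3, Hspb6, Hspb7 and Hspb8, and all 7 were found among the 17314 genes of the deposited table. All 7 also passed the filter on low counts, as did 13044 genes in all.

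RNA was sequenced from the gastrocnemius, a calf muscle of mainly fast fibres, of mice aged 6 months (the group named youth), 15 months (mid) and 21 months (old), with 3 mice per age and 1 library per mouse. The design text speaks of separate mice, and the labels used here give no strain, sex, genotype or treatment. The title of the series ties the data to thyroid hormone receptor alpha and to ageing of skeletal muscle, so the question for these genes is whether their expression differed with age. Total counts ran from 15354396 to 17317856 per library, and the summed level of 13 fast fibre genes from 123920 to 186090 CPM (counts scaled to library size, so that levels compare between mice). On the first principal component of all tested genes, which held 38.0% of the variance, mouse 2 at 6 months (-36.6), mouse 1 at 15 months (24.1) and mouse 3 at 21 months (22.9) lay far from the other 6 (-9.45 to 9.82), so results are also given without these 3 outlying libraries.

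None of the 7 genes passed the test in any comparison of ages. Cryab, Hspb1, Hspb6 and Hspb7 differed between mice of one age by 1.65-fold (Hspb1 at 6 months) to 6.35-fold (Hspb7 at 6 months), and Hspb2, Hspb3 and Hspb8 by 1.06-fold to 1.49-fold. Within each age Cryab, Hspb1, Hspb6 and Hspb7 were highest in the same mouse (mouse 1 at 6 months, mouse 1 at 15 months and mouse 3 at 21 months), and so was Hspb2, at a narrower range. Hspb8 was the single member whose 21-month mice all lay above the mice of both younger ages.

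Promoters are shown for genes of each kind, to set Hspb1, Hspb6 and Hspb7, which varied together, beside Hspb8, which did not. They are the 250 bases before the annotated start, in the sense of the gene, from RefSeq on GRCm38.p6, of which 5 of the 7 members have an entry (6 entries, since Hspb6 has 2 starts, of which the downstream one is shown). Capitals mark GAANNTTC, the inverted pair of GAA units that heat shock factor binds. The windows are chr5:135887669-135887918 on the plus strand for Hspb1, chr7:30553051-30553300 on the plus strand for Hspb6, chr4:141420529-141420778 on the plus strand for Hspb7 and chr5:116422865-116423114 on the minus strand for Hspb8.
Hspb1: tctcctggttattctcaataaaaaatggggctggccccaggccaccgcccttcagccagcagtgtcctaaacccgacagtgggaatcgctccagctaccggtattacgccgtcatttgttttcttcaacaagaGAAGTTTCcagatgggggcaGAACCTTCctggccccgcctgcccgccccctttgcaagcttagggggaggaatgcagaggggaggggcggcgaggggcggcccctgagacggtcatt
Hspb6: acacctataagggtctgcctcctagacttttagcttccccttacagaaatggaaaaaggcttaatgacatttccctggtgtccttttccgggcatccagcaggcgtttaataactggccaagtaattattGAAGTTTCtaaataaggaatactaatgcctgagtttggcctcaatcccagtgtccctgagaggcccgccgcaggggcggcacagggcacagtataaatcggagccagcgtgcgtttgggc
Hspb7: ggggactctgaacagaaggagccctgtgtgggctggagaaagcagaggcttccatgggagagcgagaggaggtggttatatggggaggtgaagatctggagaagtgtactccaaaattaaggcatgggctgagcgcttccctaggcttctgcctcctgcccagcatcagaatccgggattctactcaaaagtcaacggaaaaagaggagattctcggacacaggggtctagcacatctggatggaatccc
Hspb8: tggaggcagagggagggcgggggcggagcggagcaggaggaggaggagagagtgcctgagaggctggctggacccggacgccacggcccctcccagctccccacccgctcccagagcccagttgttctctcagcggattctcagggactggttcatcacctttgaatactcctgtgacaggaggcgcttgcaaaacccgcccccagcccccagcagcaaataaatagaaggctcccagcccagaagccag

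GAANNTTC and TTCNNGAA, each the same on either strand, were searched in 300 bases, which add the 50 bases after the start to the 250 shown. Hspb1 held GAANNTTC at positions -117 to -110 and -97 to -90 from the start, and the downstream start of Hspb6 held it at -120 to -113. Hspb8 held it after the start, at 3 to 10, outside the stretch shown. The same 8 letters, GAAGTTTC, stood in Hspb1 (its upstream match), in Hspb6 and in Hspb8. Hspb3 held a match at -224 to -217, and in Hspb7 and at the upstream start of Hspb6 neither form was found. Among all 32851 promoter entries 7.86% held GAANNTTC, 8.52% held TTCNNGAA and 15.1% held at least 1 of them. A longer heat shock element of 3 units, that is GAANNTTC followed by NNGAA or TTCNNGAA followed by NNTTC, was found in none of the 6 member entries and in 0.603% of all entries. TATAAA stood at -29 to -24 of the downstream start of Hspb6 and at -11 to -6 of Hspb3, and in 13.6% of all entries. At -12 to -3 of Hspb3 a MEF2 site overlapped that TATAAA. MEF2 is a transcription factor of muscle genes, and 3.19% of all entries held such a site. A CArG box, the site of serum response factor, was found in none of the member entries and in 1.63% of all. These matches are letters in a window and not measured binding.

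Cryab encodes alphaB-crystallin, the family member best known from the eye lens and from oxidative muscle fibres, where it binds desmin and titin (Entrez ID 12955, chromosome 9, 50751325 to 50756636, mm10, plus strand). At 6 months it stood at 838, 395 and 481 CPM in mice 1, 2 and 3, at 15 months at 1173, 519.6 and 386 CPM, and at 21 months at 561, 468 and 1377 CPM. A single mouse per age was high, and the ages overlapped. In CPM the mean and SD of the 3 mice were 571 ± 235 (6 months), 693 ± 421 (15 months) and 802 ± 499.8 (21 months). At 21 against 6 months edgeR gave a log2 fold change of 0.49 (SE 0.49, 95% interval -0.61 to 1.58, adjusted p = 0.763). At 15 against 6 months edgeR gave 0.28 (SE 0.49, 95% interval -0.82 to 1.37, adjusted p = 0.870), and both intervals held decreases as well as increases. Without mouse 3 at 21 months the value at 21 against 6 months was -0.15.

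Hspb1 encodes Hsp25, the mouse form of human HSP27, which is phosphorylated downstream of p38 kinase and binds actin filaments (Entrez ID 15507, chromosome 5, 135887919 to 135889563, plus strand). Its level was 145, 87.5 and 90.3 CPM at 6 months, 253, 101 and 101 CPM at 15 months, and 157, 123 and 313 CPM at 21 months. All 3 old mice lay above mice 2 and 3 at 6 months and mice 2 and 3 at 15 months, while mouse 1 of each younger age lay above mouse 2 at 21 months. The log2 fold change at 21 against 6 months was 0.88 (SE 0.42, 95% interval -0.06 to 1.82, adjusted p = 0.489, edgeR), on means of 198 ± 101 CPM at 21 months and 107 ± 32.2 CPM at 6 months. It was 0.38 without mouse 3 at 21 months.

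Hspb6 encodes Hsp20, which is phosphorylated by cyclic nucleotide-dependent kinases and is known for its part in smooth muscle relaxation and in the heart (Entrez ID 243912, chromosome 7, 30552178 to 30555443, plus strand). It stood at 579, 315 and 361 CPM at 6 months, 869, 521 and 391 CPM at 15 months, and 464, 350.1 and 805 CPM at 21 months. The ages overlapped, and the mean at 15 months, 594 ± 247 CPM, was the highest of the 3. At 15 against 6 months edgeR put the log2 fold change at 0.51 (SE 0.36, adjusted p = 0.664); leaving out mouse 1 at 15 months gave 0.13, and leaving out mouse 1 at 6 months 0.81. At 21 against 6 months it was 0.37 (SE 0.36, adjusted p = 0.759), or -0.04 when mouse 3 at 21 months was left out. Annotated exons of Hspb6 share 122 bases with Proser3 and 3 with Lin37 on the opposite strand, and 77 with Gm38670 on the same strand. No source used here says whether the counting took account of strand.

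Hspb7 encodes a chaperone of heart and skeletal muscle that binds filamin C, the actin crosslinker of the Z-disc (Entrez ID 29818, chromosome 4, 141420779 to 141425311, plus strand). It varied most within the family. The level was 366, 57.7 and 77.5 CPM at 6 months, 872, 293 and 181 CPM at 15 months, and 417, 239 and 899 CPM at 21 months. Mice 2 and 3 at 6 months were the lowest of the 9, and mouse 1 of that age lay within the range of the older mice. At 21 against 6 months its log2 fold change was 1.63 (SE 0.79, 95% interval -0.12 to 3.38, edgeR adjusted p = 0.490), with means of 518 ± 341 CPM at 21 months and 167 ± 173 CPM at 6 months. Leaving out mouse 1 at 6 months gave 2.94, and leaving out mouse 3 at 21 months gave 0.97. At 15 against 6 months the log2 fold change was 1.42 (SE 0.78, edgeR adjusted p = 0.568), and 0.09 without the 3 outlying libraries. Those libraries include its lowest mouse at 6 months and its highest at 15 months.

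Hspb8 encodes the partner of the co-chaperone BAG3, with which it hands damaged filamin and other clients to HSPA8 and the ubiquitin ligase CHIP for selective autophagy (Entrez ID 80888, chromosome 5, 116408491 to 116422864, minus strand). Its level was 647, 732 and 722 CPM at 6 months, 680.02, 644 and 759.6 CPM at 15 months, and 964, 827 and 772 CPM at 21 months. The lowest 21-month mouse lay above the highest mouse of either younger age, while the 6- and 15-month mice overlapped. In CPM the mean and SD of the 3 mice were 700.2 ± 46.1 (6 months), 694 ± 59.2 (15 months) and 854 ± 98.4 (21 months). Hspb8 had a log2 fold change of 0.29 (SE 0.13, 95% interval 0.01 to 0.57) at 21 against 6 months, with an unadjusted p of 0.0449 and an adjusted p of 0.452 (edgeR). It was 0.30 (SE 0.13, 95% interval 0.02 to 0.58) at 21 against 15 months, with an unadjusted p of 0.0382 and an adjusted p of 0.99987. Neither passed, and these comparisons share the 21-month mice. At 15 against 6 months it was -0.01 (SE 0.13, adjusted p = 0.981). Leaving out each library in turn gave 0.19 to 0.36 at 21 against 6 months and 0.20 to 0.37 at 21 against 15 months.

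Hspb2 and Hspb3, whose products assemble with each other into a complex that forms as myoblasts differentiate, were the least abundant members. Hspb2 encodes a binding partner of myotonic dystrophy kinase (Entrez ID 69253, chromosome 9, 50751078 to 50752354, minus strand). It stood at 56.7, 55.1 and 53.3 CPM at 6 months, 57.4, 52.02 and 52.5 CPM at 15 months, and 49.2, 49.4 and 66.3 CPM at 21 months. Mouse 3 at 21 months was the highest of the 9 and the other two old mice the lowest. Its log2 fold change at 21 against 6 months was -0.0037 (SE 0.12, 95% interval -0.27 to 0.27, adjusted p = 0.994, edgeR).

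Hspb3, the gene of a small muscle-restricted family member, is read from a single annotated exon (Entrez ID 56534, chromosome 13, 113662896 to 113663676, minus strand). Its level was 18.3, 25.2 and 25.8 CPM at 6 months, 26.03, 18.7 and 17.5 CPM at 15 months, and 19.9, 15.6 and 20.3 CPM at 21 months. Mouse 1 at 6 months lay within the range of the old mice, so these ages overlapped. The log2 fold change of -0.31 (SE 0.19, 95% interval -0.73 to 0.10, adjusted p = 0.577, edgeR) at 21 against 6 months did not pass. It had the opposite sign to those of Cryab, Hspb1, Hspb6, Hspb7 and Hspb8 in that comparison.

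**Figure D1:**
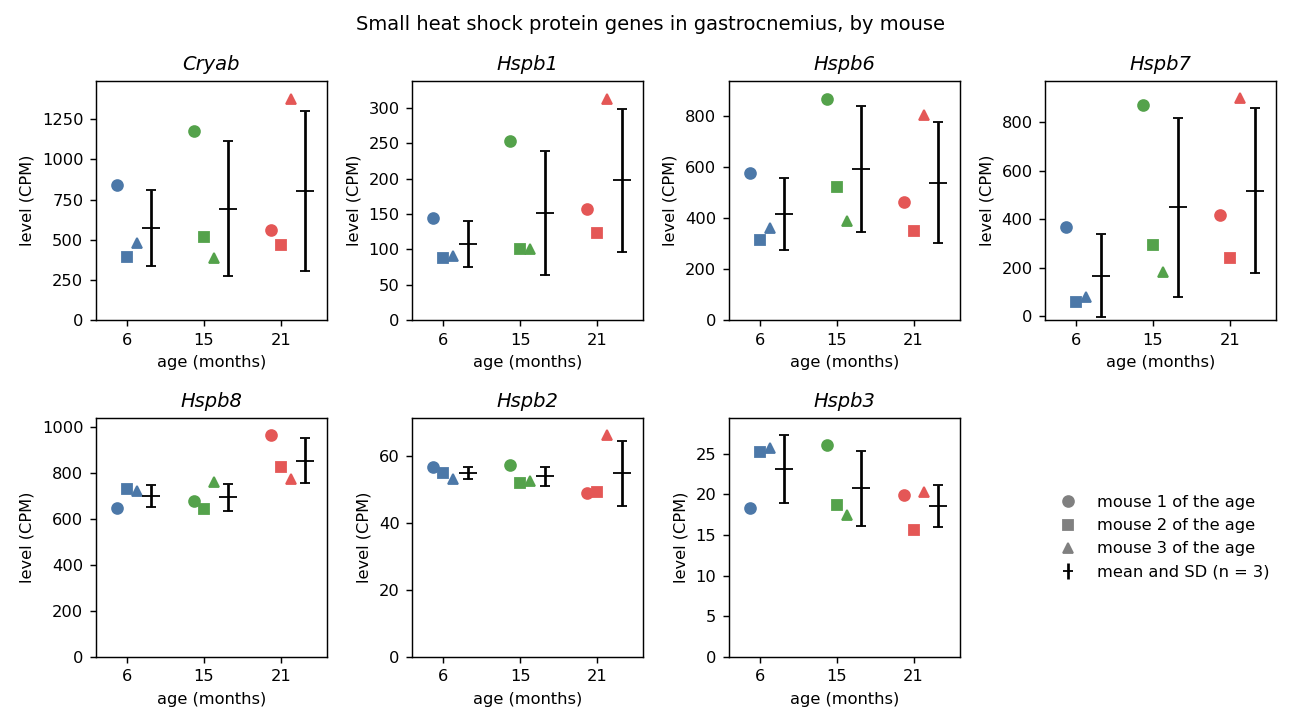
Level of each gene in CPM (vertical axes, from about 0) against age in months, with 1 symbol per mouse and the mean with SD beside each age (n = 3). Cryab, Hspb1, Hspb6 and Hspb7 have the same highest mouse in each age, and for Hspb8 the 3 mice at 21 months, from 772 to 964 CPM, lie above the other 6.

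Counted over the family, edgeR called 0 of 7 genes in each comparison, while of all tested genes it called 0.0153% at 21 against 6 months, 0.00767% at 15 against 6 months and 0% at 21 against 15 months. At an unadjusted p under 0.05 the counts were 1, 0 and 1 of 7, against 10.6, 10.3 and 1.82% of all genes, and in both cases the gene was Hspb8. DESeq2 called 0 of 7 in each comparison as well, against 1.53, 0.874 and 0.023% of all genes, and its smallest adjusted p for a member was 0.303, for Hspb8 at 21 against 6 months. Groups did not overlap, with the older one higher, for 1 of 7 genes at 21 against 6 months (7.81% of all genes) and for 1 of 7 at 21 against 15 months (2.84%), again Hspb8, and for 0 of 7 at 15 against 6 months (6.64%). With the older group lower, groups did not overlap for 0 of 7 genes in each comparison, against 8.31% of all genes at 21 against 6 months, 7.14% at 15 against 6 months and 3.3% at 21 against 15 months. As a median over the 7 genes, the log2 fold change was 0.37 for the oldest against the youngest mice, beside -0.01 over all tested genes. It was 0.28 for 15 against 6 months and 0.21 for 21 against 15 months, beside -0.01 and -0.0025 over all tested genes. Without the 3 outlying libraries, Cryab stood at -0.36, Hspb3 at -0.31, Hspb6 at -0.21 and Hspb2 at -0.16 at 21 against 6 months. In the same fit Hspb1 stood at 0.25, Hspb7 at 0.56 and Hspb8 at 0.39. The libraries left out include the lowest 6-month and the highest 21-month mouse for Cryab, Hspb1, Hspb6 and Hspb7, which lowers any rise.

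**Figure D2:**
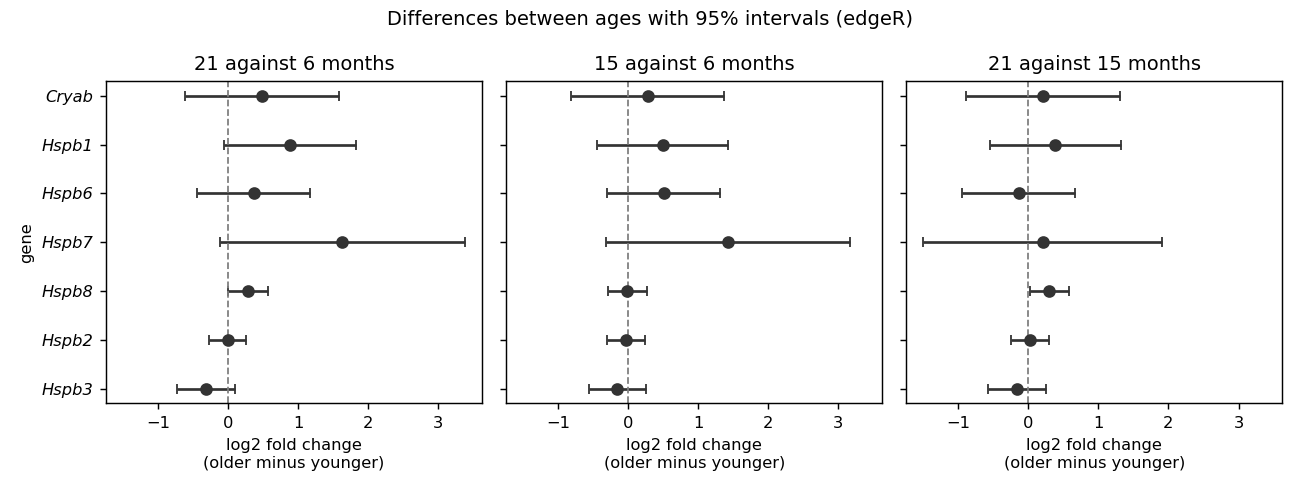
Log2 fold change of each gene (horizontal axis, older minus younger) with its 95% interval from edgeR, for 21 against 6, 15 against 6 and 21 against 15 months. Intervals of Hspb2, Hspb3 and Hspb8 are narrow and those of Hspb7 wide, and only the interval of Hspb8 leaves out 0, at 21 against 6 and at 21 against 15 months, before adjustment for all genes.

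The spread between mice of one age divided the family. The biological coefficient of variation, edgeR's estimate of that spread relative to the level, was 0.628 for Hspb7, 0.416 for Cryab, 0.360 for Hspb1 and 0.315 for Hspb6, which is above 99.5, 97.8, 96.4 and 94.5% of all genes in that order. It was 0.164 for Hspb3, 0.133 for Hspb8 and 0.121 for Hspb2, and the median of all genes was 0.135. From the lowest to the highest of the 9 mice Hspb7 spanned 15.6-fold, Hspb1 3.58-fold, Cryab 3.57-fold and Hspb6 2.76-fold, while Hspb3 spanned 1.67-fold, Hspb8 1.496-fold and Hspb2 1.35-fold. The 7 genes together held between 0.154% of all counts, in mouse 2 at 6 months, and 0.437%, in mouse 3 at 21 months.

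**Figure D3:**
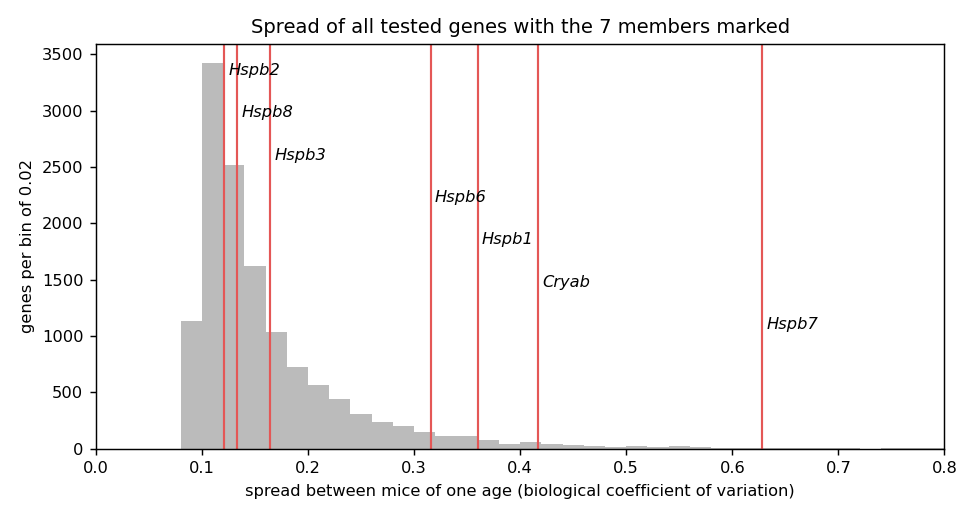
Number of genes (vertical axis) by the spread between mice of one age, as biological coefficient of variation (horizontal axis, bins of 0.02), with a line at each member. Hspb2, Hspb8 and Hspb3 stand in the bulk of genes, between 0.121 and 0.164, and Hspb6, Hspb1, Cryab and Hspb7 in the right tail, from 0.315 to 0.628.

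The 4 variable genes moved together from mouse to mouse. Relations were computed as correlations of log2(CPM + 1) over the 9 libraries, 28 in all (21 pairs of members and 7 relations with slow fibre genes), with two-sided exact permutation p-values adjusted over the 28. By Pearson r the closest pair was Cryab with Hspb6, at 0.94 (exact permutation p = 0.000342, adjusted 0.00957). Its Spearman rho was 0.87 (exact permutation p = 0.00451, adjusted 0.0316). By rho Hspb1 with Hspb7 was closest, at 0.95 (exact permutation p = 0.000353, adjusted 0.00988). All 6 pairs among Cryab, Hspb1, Hspb6 and Hspb7 had an r between 0.84 and 0.94, with adjusted exact permutation p-values from 0.00957 to 0.0249, and a rho between 0.78 and 0.95. The rho of Cryab with Hspb1 and of Hspb1 with Hspb6 did not pass on adjustment (exact permutation, adjusted p of 0.0774 and 0.0804). Without the 2 libraries farthest from the median of the gene named first (mouse 1 at 15 months and mouse 3 at 21 months in each case), r ran from 0.60 to 0.85. The 0.85 was that of Hspb1 with Hspb7. Taken as deviations from the mean of each age, r was 0.90 to 0.99 in these 6 pairs. Many other genes followed the same libraries: Hspb6 stood at place 11 and Hspb1 at place 18 among 13043 genes ordered by r with Cryab, but Hspb7 at place 253. Ordered by r with Hspb1, Cryab stood at place 16, Hspb7 at 51 and Hspb6 at 70. By r with Hspb6, Cryab stood at place 52, Hspb7 at 178 and Hspb1 at 231. By r with Hspb7, Hspb6 stood at place 97, Hspb1 at 103 and Cryab at 307.

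Hspb2 was highest in the same mouse of each age as these genes, and as deviations from age means it had an r of 0.82 with Cryab, 0.82 with Hspb1, 0.78 with Hspb6 and 0.64 with Hspb7. Of the other 15 pairs of members, Cryab with Hspb2 alone passed, with an r of 0.78 (exact permutation p = 0.0107, adjusted 0.0333) and a rho of 0.53 (exact permutation p = 0.148, adjusted 0.376). Without mouse 1 at 15 months and mouse 3 at 21 months its r over all ages was 0.29, so that relation rested on those mice. Cryab and Hspb2 also share reads, as described below. The part of these reads in the relations of Hspb2 and in its highest mice was not tested. Hspb8 had an r between -0.36 and 0.11 with the other 6 members. As deviations from age means its r was -0.62 with Cryab, -0.59 with Hspb6 and -0.58 with Hspb2. It was -0.57 with Hspb7, -0.48 with Hspb1 and 0.18 with Hspb3. In each age Hspb8 was highest in a mouse other than the one in which Cryab, Hspb1, Hspb6 and Hspb7 were highest.

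**Figure D4:**
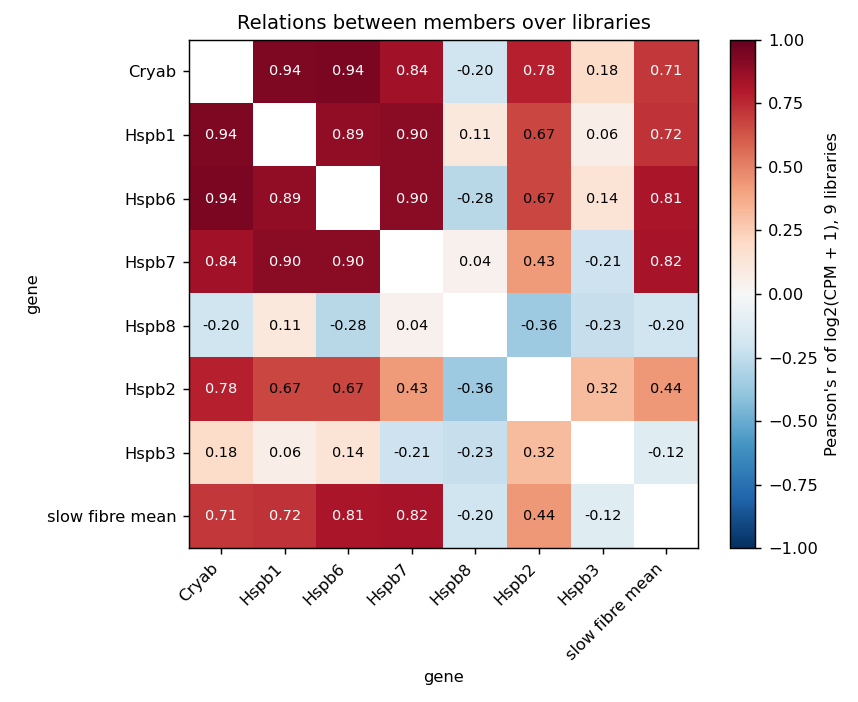
Pearson's r of log2(CPM + 1) over 9 libraries for each pair of genes and for the mean of 12 slow fibre genes, coloured from -1 to 1. Cryab, Hspb1, Hspb6 and Hspb7 form a block of r from 0.84 to 0.94, and Hspb8 and Hspb3 have an r near or below 0 with most others.

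Cryab and Hspb2 are neighbours on chromosome 9, transcribed from opposite strands, and differed in how much they varied. The annotated exons of the pair share 252 bases, 50751325 to 50751576 (GENCODE M21), which lie at the start of the annotated Cryab gene. In RefSeq Cryab starts at 50745951, and its span there covers that of Hspb2, 50751072 to 50752354. In all 9 libraries the deposited counts of both genes had a fractional part, and in all 9 their sum was whole within 0.005 (for example 22292.1 for Cryab and 1072.9 for Hspb2 in mouse 3 at 21 months, together 23365), while the other 5 members had whole counts in each library. How the authors' counting divided reads between the pair is not stated, so the level of Hspb2, the less abundant of the pair, is uncertain by the reads it shares. Counts of Cryab were 20.8 times those of Hspb2 in mouse 3 at 21 months and 20.4 times in mouse 1 at 15 months, but 7.16 times in mouse 2 at 6 months.

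Levels between genes are compared per kilobase of annotated exons (the union over GENCODE transcripts), which can be longer than the transcripts made in muscle. Cryab averaged 466 ± 244 CPM per kilobase and Hspb8 384 ± 51.3 (SD over 9 libraries), and Cryab lay above Hspb8 in 4 of 9 libraries, so their order was not settled. Hspb6 followed at 225 ± 87.4 CPM per kilobase and lay below Hspb8 in 8 of 9 libraries. Hspb1 at 148 ± 76.9 and Hspb7 at 137 ± 112 CPM per kilobase did not differ beyond their spread, Hspb1 being the higher in 6 of 9 libraries. Hspb2 at 65.5 ± 6.26 and Hspb3 at 26.6 ± 4.99 CPM per kilobase came last, and Hspb2 exceeded Hspb3 in 9 of 9 libraries. Other genes carrying an Hspb symbol were scarce: Hspb11, which encodes a protein of cilia, had 394 counts over the 9 libraries together and a log2 fold change of 0.23 (SE 0.28) at 21 against 6 months, and the testis gene Hspb9 had 6 counts and did not pass the filter.

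Slow and oxidative fibre genes differed between the same mice. The slow myosin heavy chain gene Myh7 had 2.33, 0.438 and 12.8 CPM at 6 months, 166, 49.7 and 22.7 CPM at 15 months, and 4.69, 18.7 and 156 CPM at 21 months. The gene of the fast oxidative myosin, Myh2, had 1611, 0.751 and 529.98 CPM at 6 months, 4395, 2825 and 834 CPM at 15 months, and 1267, 967 and 3642 CPM at 21 months. Mouse 1 at 15 months and mouse 3 at 21 months held the most of each, while at 6 months Myh7 was highest in mouse 3 and Myh2 in mouse 1. The mean log2 level of 12 slow fibre genes had an r of 0.82 with Hspb7 (exact permutation p = 0.00719, adjusted 0.0252) and of 0.81 with Hspb6 (exact permutation p = 0.00650, adjusted 0.0252). The rho was 0.62 (exact permutation p = 0.0857, adjusted 0.300) for Hspb7 and 0.73 (exact permutation p = 0.0311, adjusted 0.125) for Hspb6, and r was 0.58 and 0.66 without mouse 2 at 6 months and mouse 1 at 15 months. For Hspb1 and Cryab r was 0.72 and 0.71 (exact permutation, adjusted p of 0.0806 and 0.0836), and for Hspb8, Hspb3 and Hspb2 it was -0.20, -0.12 and 0.44. As deviations from age means the order differed, with an r of 0.86 for Cryab, 0.82 for Hspb6 and 0.78 for Hspb1. It was 0.75 for Hspb7, 0.72 for Hspb2, 0.21 for Hspb3 and -0.72 for Hspb8. The 12 slow fibre genes were all above 0 at 21 against 6 months, with a median log2 fold change of 1.66 and 0 called by edgeR. Their summed level was 112 to 343 CPM at 6 months, 418 to 1317 CPM at 15 months and 294 to 1196 CPM at 21 months. The most abundant of them were Atp2a2, the slow calcium pump (log2 fold change 1.02, SE 0.37, edgeR adjusted p = 0.356), and Myoz2 of the slow Z-disc (1.35, SE 0.98, edgeR adjusted p = 0.664). Of 13 fast fibre genes 12 lay below 0, with a median of -0.28 and 0 called by edgeR. The other, the fast myosin gene Myh1, averaged 1914 ± 1852 CPM at 6 months and 3188 ± 1993 CPM at 21 months. Myh1 was highest in mouse 1 at 6 months (3850 CPM), mouse 1 at 15 months (6994 CPM) and mouse 3 at 21 months (5248 CPM). The most abundant fast fibre genes were Myh4, the fastest myosin, and Atp2a1, the fast calcium pump. Their log2 fold changes were -0.03 (SE 0.26) and -0.32 (SE 0.20). DESeq2 called 1 fast fibre gene lower, the myosin light chain kinase Mylk2 (log2 fold change -0.78, SE 0.22, edgeR adjusted p = 0.239, DESeq2 adjusted p = 0.0284). The part of these fibre genes in the values of the small heat shock proteins was not tested.

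**Figure D5:**
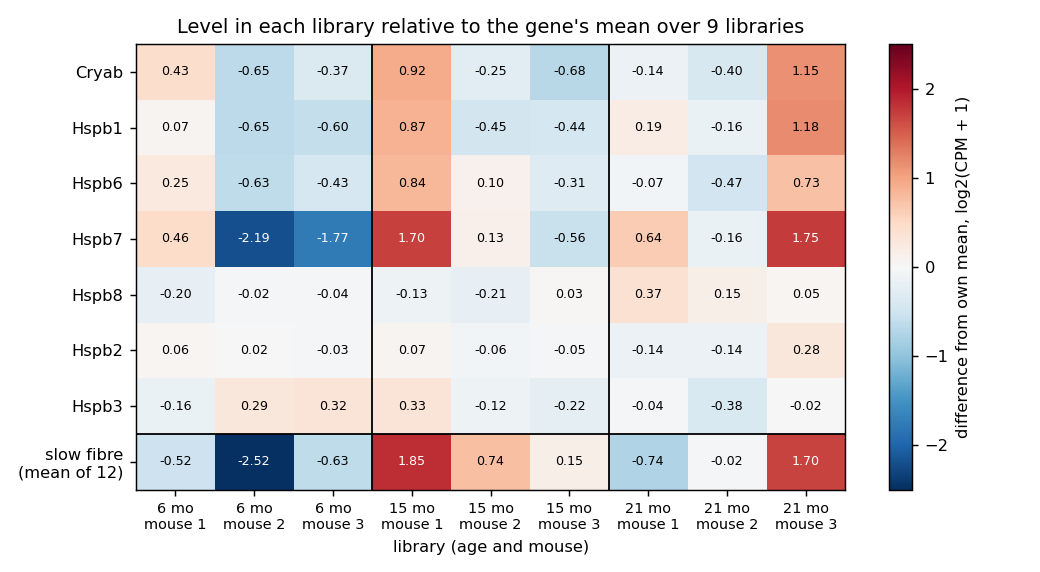
Difference of each gene from its own mean over 9 libraries in log2(CPM + 1) (colour and printed value), by age and mouse, with the mean of 12 slow fibre genes in the last row. Mouse 1 at 15 months and mouse 3 at 21 months are high, and mouse 2 at 6 months low, for Cryab, Hspb1, Hspb6, Hspb7 and the slow fibre genes, while mouse 1 at 6 months is above the mean for Cryab, Hspb6 and Hspb7 (0.25 to 0.46), near it for Hspb1 (0.07) and below it for the slow fibre genes.

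Some members are also expressed outside muscle fibres, Hspb1, Hspb6 and Cryab in smooth muscle and Cryab in Schwann cells. Markers of smooth muscle and pericytes summed to 800.1 to 1149.9 CPM at 6 months, 1088 to 1349 CPM at 15 months and 965 to 1293 CPM at 21 months, with 9 of 9 markers past the filter and 0 called by edgeR. Schwann cell markers summed to 80.2 to 130.2 CPM at 6 months, 109.6 to 193 CPM at 15 months and 102 to 107 CPM at 21 months, with 7 of 8 markers past the filter. Endothelial markers summed to 491 to 689 CPM at 6 months, 561 to 705 CPM at 15 months and 557 to 666 CPM at 21 months; edgeR called 0 at 21 against 6 months and DESeq2 called Emcn, a sialomucin of capillaries, higher (log2 fold change 0.62, SE 0.13, DESeq2 adjusted p = 0.0109). Macrophage markers summed to 182 to 282 CPM at 6 months, 94.4 to 209.9 CPM at 15 months and 121 to 197 CPM at 21 months. Markers of fibro-adipogenic progenitors summed to 2880.4 to 4205 CPM at 6 months, 2783 to 2851 CPM at 15 months and 2648 to 2823 CPM at 21 months, with 0 called by edgeR and Gsn, which encodes the actin-severing gelsolin, called lower by DESeq2 (log2 fold change -0.54, SE 0.16, DESeq2 adjusted p = 0.0303). Those of satellite cells ran from 38.1 to 44.95 CPM over the 9 mice. Sums of smooth muscle, endothelial and macrophage markers were highest in mouse 1 at 6 months, mouse 1 at 15 months and mouse 3 at 21 months. These are the mice in which Cryab, Hspb1, Hspb6 and Hspb7 were highest. The sums of Schwann cell, fibro-adipogenic progenitor and satellite cell markers did not have this order. Sums are led by abundant genes, such as Rgs5 with a mean of 728 CPM, and single markers differed. Smtn of smooth muscle was highest at 6 months in mouse 3 (95.2 CPM), and endothelial Vwf at 15 months in mouse 3 (64.2 CPM). Ly6a of fibro-adipogenic progenitors was highest in the same mice as Cryab (107, 109 and 112 CPM). In bulk tissue fewer cells of a type and less RNA per cell cannot be told apart, and the part of these cells in the values of the 7 genes was not tested.

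Among the partners of Hspb8 in selective autophagy, 11 genes were measured and edgeR called 0 in each comparison. Bag3, the co-chaperone itself, stood at 157, 151 and 149.6 CPM at 6 months, 255, 199.7 and 178 CPM at 15 months, and 211, 203 and 236 CPM at 21 months. All 6 older mice lay above the 3 mice at 6 months. Its log2 fold change was 0.51 (SE 0.13, edgeR adjusted p = 0.204) at 21 against 6 months, where DESeq2 called it (adjusted p = 0.0297), and 0.47 (SE 0.13, edgeR adjusted p = 0.316) at 15 against 6 months, where DESeq2 did not (adjusted p = 0.0868). For Bag3, then, the mice at 15 months all lay above those at 6 months, whereas for Hspb8 these ages overlapped. The constitutive Hsp70 gene Hspa8 had a log2 fold change of 0.08 (SE 0.16) at 21 against 6 months, and Stub1, which encodes CHIP, one of -0.07 (SE 0.10).

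Flnc, which encodes filamin C, the client of both Hspb7 and the Bag3 route, stood at 812, 525 and 489 CPM at 6 months, 1713, 653 and 649 CPM at 15 months, and 1210, 706 and 1859 CPM at 21 months. It was high in the mice in which Hspb1 was high. Its log2 fold change at 21 against 6 months was 1.05 (SE 0.43, edgeR adjusted p = 0.426), with overlapping ages, and 0.72 (SE 0.43) at 15 against 6 months. Of 14 Z-disc and intermediate filament genes, Flnc included, edgeR called 0 at 21 against 6 months, 8 lay above 0 and 6 below, and their median was 0.05; DESeq2 called 1 lower, Myoz1, a calcineurin-binding protein of the fast Z-disc (log2 fold change -0.51, SE 0.15, edgeR adjusted p = 0.258, DESeq2 adjusted p = 0.0331). Des, the muscle intermediate filament protein that Cryab binds, had a log2 fold change of 0.09 (SE 0.16), Ttn, the giant spring protein of the sarcomere, one of -0.06 (SE 0.14), and Actn3, the fast fibre Z-disc actinin, one of -0.35 (SE 0.24).

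Heat shock factors and the large chaperones that heat shock factor 1 drives were not called by edgeR either. Of 20 such genes 14 lay above 0 and 6 below at 21 against 6 months, with a median log2 fold change of 0.09 and 0 called by edgeR, while DESeq2 called 1, Hsp90aa1, the inducible Hsp90 (log2 fold change 0.70, SE 0.15, edgeR adjusted p = 0.124, DESeq2 adjusted p = 0.00245). At 15 against 6 months 9 lay above 0 and 11 below, and at 21 against 15 months 17 above and 3 below, with 0 called in each by edgeR. The highest values in this list at 21 against 6 months were those of the stress-inducible Hsp70 genes Hspa1b (log2 fold change 1.19, SE 0.82, edgeR adjusted p = 0.640) and Hspa1a (1.07, SE 0.50, edgeR adjusted p = 0.479), near-identical copies between which reads are uncertain. Hspa1b had 15.8, 3.88 and 4.66 CPM at 6 months, 12.4, 5.30 and 4.74 CPM at 15 months, and 7.45, 4.24 and 43.7 CPM at 21 months. Both were highest in the same mouse of each age as Cryab, Hspb1, Hspb6 and Hspb7. Hsf1, the heat shock factor itself, had 45.6, 41.996 and 42.2 CPM at 6 months, 34.5, 40.99 and 41.3 CPM at 15 months, and 37.6, 44.4 and 36.3 CPM at 21 months. Its log2 fold change was -0.13 (SE 0.11) at 21 against 6 months. Hsp90ab1, the constitutive Hsp90, had a log2 fold change of -0.17 (SE 0.15) and Hspd1, the mitochondrial Hsp60, one of 0.08 (SE 0.14). Kinases and other regulators that act on small heat shock proteins numbered 10, with 4 above 0 and 6 below at 21 against 6 months and 0 called. Mapkapk2, the kinase that phosphorylates Hspb1, had a log2 fold change of 0.19 (SE 0.16), and Mapk14, its p38 activator, one of -0.06 (SE 0.12).

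The genes most like each member were those with the highest Pearson r over the 9 libraries among 8285 other genes with a mean of at least 10 CPM. For Hspb1 these were Ahnak2 (r = 0.98), the Hsp40 co-chaperone gene Dnaja4 (0.98) and Flnc (0.98). Cryab had Anxa2, an annexin (r = 0.96), Clic4, of the chloride intracellular channel family (0.95) and Dnaja4 (0.95), so that Dnaja4 stood near both. Dnaja4 had 101, 53.01 and 69.0 CPM at 6 months, 183, 80.6 and 73.3 CPM at 15 months, and 97.3, 84.4 and 205 CPM at 21 months, with the same high mouse in each age as Cryab. For Hspb6 they were Hadha (r = 0.99), a subunit of the mitochondrial enzyme of fatty acid oxidation, Evc2 (0.99) and Slc25a22 (0.98), and for Hspb7 Stom, a membrane protein (0.98), Slc25a34 (0.97) and Fhl1 (0.97), a LIM-domain protein of muscle. Fhl1 was 3484 CPM in mouse 1 at 15 months and 3219 CPM in mouse 3 at 21 months, but 162 CPM in mouse 2 at 6 months. The genes nearest to Hspb8 were others, Parg, which encodes the enzyme that degrades poly(ADP-ribose) (r = 0.98), Snx13 (0.96) and Mpzl3 (0.91), and those nearest to Hspb2 were Slc25a42 (0.92), Gnb2 (0.91) and Mrpl58 (0.90). Hspb3 was followed by Rnase4 (0.91), Yars2 (0.91) and Zbtb20 (0.89). These likenesses were picked as the highest of many in the same 9 libraries and are given as a description.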

How the data were processed

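RNA of 9 gastrocnemius samples was extracted with TRIzol, selected with oligo(dT) beads and sequenced on a DNA nanosphere platform, per the labels' protocols. The authors deposited estimated counts of reads per gene, of which 90.0 to 90.7% per library were whole within 0.005. Reads were placed on mm10, as the submitters' processing notes have it; no source used here gives the aligner, the counter or the use of strand. Columns were matched to titles by life stage and number.

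Counts were rounded and filtered (filterByExpr, minimum count 10), which left 13044 genes, and scaled with TMM factors of 0.923 to 1.05. With edgeR 4.0.16 (R 4.3.3), a quasi-likelihood model with a term for age covered the 9 libraries; its p-values were adjusted by the Benjamini-Hochberg method across every tested gene, with a threshold of 0.05, and the procedure was tested on simulated data. DESeq2 1.42.0 and other scalings, filters and sample sets were alternatives. Fold changes are older minus younger. Each comparison rests on 3 mice per age. Positions and exon lengths come from GENCODE M21 (GRCm38, the assembly of mm10), and promoters from RefSeq (GRCm38.p6).

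The genes, the lists and the 3 outlying libraries were chosen with earlier results of these data known. Named were the 7 members, from each chaperone, client, kinase and fibre list genes past the threshold and the 2 with the highest mean, fixed partners (Bag3, Hsf1, Hspa8, Flnc, Des, Stub1, Hspb11, Myh7, Myh2), and the 3 genes most like each member. Hsp90aa1, Hspa1a, Hspa1b, Myoz1, Mylk2, Emcn, Gsn, Rgs5, Smtn, Vwf, Ly6a and Myh1 were named after their values were seen. Cryaa was not analysed, since the deposited table has no row with that symbol.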

Additional observations from a re-analysis of the deposited data

How the results depend on the processing

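No alternative brought any of the 7 genes past the threshold: the count of members called was 0 in each comparison under all 8 alternatives and all 9 fits without 1 library. Of 21 log2 fold changes (7 genes, 3 comparisons), 7 kept their sign under each of these, those of Hspb8 at 21 against 6 and 21 against 15 months, Hspb7 and Hspb3 at 21 against 6 and 15 against 6 months, and Hspb1 at 21 against 6 months. Without the 3 outlying libraries the sign changed for Cryab (-0.36) and Hspb6 (-0.21) at 21 against 6 months, for Cryab (-0.54), Hspb1 (-0.22), Hspb6 (-0.0428) and Hspb8 (0.0362) at 15 against 6 months, and for Hspb2 (-0.0851) at 21 against 15 months. For Cryab, Hspb1, Hspb6 and Hspb7 the 3 outlying libraries are the lowest mouse at 6 months and the highest at 15 and 21 months. Leaving them out therefore lowers any rise from 6 months in these genes. Hspb2, near 0 at 21 against 6 months, was 0.0003 with DESeq2, 0.0004 with RLE scaling and 0.0796 with total count scaling. With total count scaling Hspb2 was 0.048 and Hspb8 0.0612 at 15 against 6 months. The cause was not tested.

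Leaving out 1 library changed the sign of other values. At 21 against 6 months these fits ran from -0.15 to 0.87 for Cryab, -0.0374 to 0.68 for Hspb6 and -0.16 to 0.0704 for Hspb2. At 15 against 6 months they ran from -0.34 to 0.66 for Cryab, -0.0915 to 0.77 for Hspb1 and -0.0805 to 0.0404 for Hspb8. At 21 against 15 months they ran from -0.43 to 0.83 for Cryab, -0.11 to 0.97 for Hspb1, -0.13 to 0.0992 for Hspb2, -0.27 to 0.035 for Hspb3, -0.54 to 0.24 for Hspb6 and -0.45 to 1.13 for Hspb7.

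Over all genes, edgeR called 2, 1 and 0 genes (21 against 6, 15 against 6 and 21 against 15 months) and DESeq2 200, 114 and 3. At 21 against 6 months 1 was called with total count scaling, 30 with no filter and 5 with the replicate block, and at 15 against 6 months 0 with total count scaling, at least 5 CPM in 3 libraries, the replicate block or only the 2 ages compared. Without 1 library the counts ran from 0 to 42 at 21 against 6 months and from 0 to 10 at 15 against 6 months, the highest of each without mouse 3 at 6 months, and were 0 at 21 against 15 months, where 237 genes had an unadjusted p under 0.05. The labels do not say that mice of equal replicate number belong together. Correlations of the deviations of such mice ran from -0.50 to 0.45 over 9 pairs, and 1 of 9 libraries matched its own number best. With so few mice per age these values cannot decide whether equal numbers share a litter, batch or day. The block is therefore only an alternative, under which 0 members were called.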
